A study of Mus musculus with 8 samples.

Results

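The genes described here carry antigen presentation by class II molecules of the major histocompatibility complex (MHC). They were chosen by gene symbol as 10 of the 23997 rows of the deposited expression table: the classical chains H2-Aa, H2-Ab1 and H2-Eb1, the invariant chain Cd74, the peptide editor genes H2-DMa, H2-DMb1 and H2-DMb2, the inhibitor genes H2-Oa and H2-Ob, and the transactivator Ciita. All 10 were found and all 10 passed the filter on low values. The 8 RNA-seq libraries came from bone marrow of leukemic C57BL/6 recipients, in 3 groups. Donor marrow collected after 5-fluorouracil treatment, which enriches progenitors, was grown with IL3, IL6 and SCF, transduced, and given to lethally irradiated recipients. The transduced genes were AML1-ETO, a fusion of the blood regulator RUNX1 with the corepressor RUNX1T1, together with the homeobox factor Meis2 (AE+Meis2, 3 libraries, median latency of 171 days), AML1-ETO9a, a shorter spliced product of the fusion, with Meis2 (AE9a+Meis2, 3 libraries, 102 days) or AML1-ETO9a alone (AE9a, 2 libraries, 138 days). The sources used here do not state the vector's promoter, the species of the transduced sequences, the age of the animals or any sorting of the marrow. Each library may therefore hold recipient and untransduced cells beside the leukemia.

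MHC class II molecules are pairs of an alpha and a beta chain that show peptides from endosomes to CD4+ T cells. New pairs are held by the invariant chain, which fills the groove and directs them to endosomes. There proteases trim it, H2-DM exchanges the remaining fragment for peptide, and H2-DO restrains H2-DM. Ciita switches the set on by docking on a fixed complex of promoter factors. In blood and marrow the molecules are known mainly from B cells, dendritic cells and macrophages, and some myeloid progenitors and monocytes also carry them. C57BL/6 mice make the A molecule from H2-Aa and H2-Ab1 but no surface E molecule, since their H2-Ea gene is a pseudogene.

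Promoters of class II genes share an X box, bound by the RFX complex, and a Y box, bound by NF-Y, at a fixed spacing. The stretches that hold these elements are shown because they are the DNA that Ciita acts through and because the classical chains moved together from library to library. They are read 5′ to 3′ on the strand of each gene, from the RefSeq promoter table (GRCm38.p6), with the core of the X box (GNAAC) and the Y box (TGATTGG) in capitals.

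H2-Aa, chr17:34287861-34287910, minus strand: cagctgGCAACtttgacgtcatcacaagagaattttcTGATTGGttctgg
H2-Eb1, chr17:34305770-34305818, plus strand: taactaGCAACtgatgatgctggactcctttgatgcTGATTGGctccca
H2-Oa, chr17:34092297-34092346, plus strand: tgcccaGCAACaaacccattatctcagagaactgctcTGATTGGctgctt
H2-Ob, chr17:34238812-34238858, plus strand: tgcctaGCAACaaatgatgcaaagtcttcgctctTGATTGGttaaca
H2-DMb2, chr17:34145121-34145169, plus strand: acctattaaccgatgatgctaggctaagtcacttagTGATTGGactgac

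The pair GNAAC and TGATTGG, in that order with 20 to 30 bases between them, was searched on both strands of the 250 bases before each start site. The letters and the spacing were drawn up after these promoters had been read, so the counts describe them and test nothing. The 2 motifs cannot overlap within such a pair. It stood in 5 of the 7 member genes with an entry in the table, H2-Aa, H2-Eb1, H2-DMb1, H2-Oa and H2-Ob. Among all 27025 genes with an entry, 0.303% held it, as did 0.271% of all 32851 promoters. The gap was 26 bases in H2-Aa, H2-DMb1 and H2-Oa, 25 in H2-Eb1 and 23 in H2-Ob. H2-DMb2 held TGATTGG, which 7.23% of promoters held, without the pair, and H2-DMa held neither TGATTGG nor the pair in its 2 windows. GNAAC alone is common and was present in 79.6% of promoters. H2-Ab1, Cd74 and Ciita were not searched.

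Levels are in FPKM, a fragment count divided by transcript length and sequencing depth, which allows genes of different length to be compared. The number of reads behind a value is unknown, because the table holds no counts, and so no counting interval is given. Each library held marrow transcripts: the granule peroxidase gene Mpo lay between 117 and 2484 FPKM. Libraries stood apart in 2 ways that touch the results. Of 1543 genes from families silent in marrow, such as olfactory receptors, 84.1% had a value above 0 in AE9a+Meis2 replicate 3. The share was 72.1% for AE9a replicate 1. It was 3.37% to 6.61% in each other library. The mean level of those genes was 0.461 FPKM in the former and 0.597 FPKM in the latter library. In the library labelled AE+Meis2 replicate 1, Runx1t1, the gene that gives the ETO part, was at 21.6 FPKM. Runx1t1 was at 218 and 223 FPKM in the other AE+Meis2 libraries and at 10.3 to 26.8 FPKM in those with AML1-ETO9a. Meis2 was at 13.1 FPKM in that library and at 38.2 and 81.5 FPKM in the other AE+Meis2 libraries. It was at 6.99 and 13.2 FPKM in AE9a and at 604 to 1280 FPKM in AE9a+Meis2. Meis2 was thus lower in all AE+Meis2 libraries than in AE9a+Meis2. By Runx1t1 the library labelled AE+Meis2 replicate 1 goes against its label, and its Meis2 level lay within the range of AE9a. Differences between groups that involve AE+Meis2 are given with and without it for the members and for the medians of the other pathway lists.

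The classical chains were abundant and differed most within 1 group, AE9a+Meis2. H2-Aa (chromosome 17, 34282744 to 34287823), the alpha chain of the A molecule, was at 33.9, 65.7 and 287 FPKM in AE9a+Meis2 replicates 1 to 3. It was at 158 and 187 FPKM in AE9a and at 241, 125 and 136 FPKM in AE+Meis2, the 241 belonging to the library labelled AE+Meis2 replicate 1. The lowest, second lowest and highest of the 8 libraries were thus all from AE9a+Meis2, and its range enclosed both other groups. In bulk marrow, fewer cells of a type and less RNA per cell cannot be told apart.

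H2-Ab1 (chromosome 17, 34257689 to 34269419), which encodes the beta chain that pairs with H2-Aa, was at 13.7, 26.9 and 160.2 FPKM in AE9a+Meis2. Its values were 69.0 and 93.2 FPKM in AE9a and 97.0, 48.7 and 58.1 FPKM in AE+Meis2. H2-Eb1 (chromosome 17, 34305867 to 34316674), the beta chain of the E molecule, was at 11.1, 19.2 and 95.7 FPKM in AE9a+Meis2, at 55.4 and 69.0 FPKM in AE9a and at 88.3, 41.8 and 53.1 FPKM in AE+Meis2. Both genes had their lowest, second lowest and highest values in AE9a+Meis2, as H2-Aa did. The transcript of the alpha chain pseudogene, listed as H2-Ea-ps, was at 9.82, 15.1 and 83.6 FPKM in AE9a+Meis2, at 27.4 and 47.7 FPKM in AE9a and at 54.4, 29.5 and 38.2 FPKM in AE+Meis2.

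Within a library the classical chains kept nearly fixed proportions. The ratio of H2-Ab1 to H2-Aa lay between 0.391 and 0.559 and that of H2-Eb1 to H2-Aa between 0.293 and 0.389 over the 8 libraries, a 1.43-fold and a 1.33-fold range, while H2-Aa itself spanned 8.45-fold. The highest H2-Ab1 ratio, 0.559, belonged to AE9a+Meis2 replicate 3. Pearson's r with H2-Aa over the 8 libraries, on log2(FPKM + 1), was 0.99 for both genes. These correlations describe genes of the same libraries and carry no test.

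Cd74 (chromosome 18, 60803848 to 60812652), the invariant chain, was the most abundant member in every library. It was at 79.1, 151.7 and 759.7 FPKM in AE9a+Meis2, at 302 and 408 FPKM in AE9a and at 426, 254 and 274 FPKM in AE+Meis2. The order of libraries was close to that of the classical chains (r of 0.98 with H2-Aa over 8 libraries), and the ratio of Cd74 to H2-Aa stayed between 1.76 and 2.65. Ciita (chromosome 16), the transactivator, was the least abundant member in 7 of 8 libraries, AE9a replicate 1 being the exception, where H2-Ob was lower. It was at 1.04, 1.99 and 9.07 FPKM in AE9a+Meis2, at 3.24 and 4.53 FPKM in AE9a and at 2.69, 2.13 and 2.96 FPKM in AE+Meis2. Ciita was lowest in AE9a+Meis2 replicate 1 and highest in replicate 3, an 8.75-fold difference between 2 libraries of 1 group. Of the 10 members, Ciita lay closest to the mean of the other 9 (r of 0.98 over the 8 libraries).

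**Figure D1:**
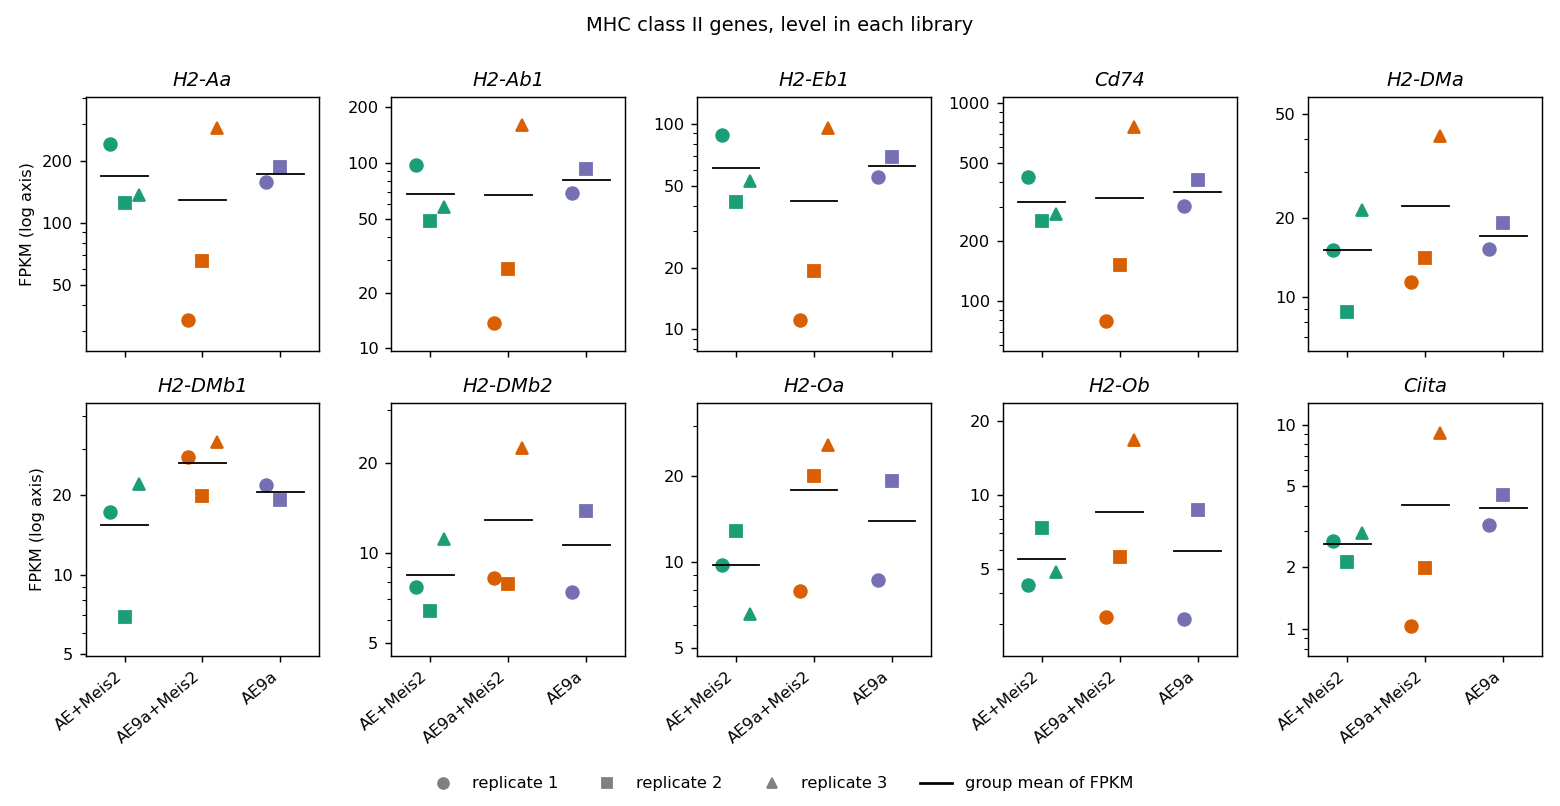
Level of each class II gene in every library, in FPKM on a log axis, by group; symbols mark the replicate number and bars the group mean. In all 10 panels the highest point is AE9a+Meis2 replicate 3, and in the panels of H2-Aa, H2-Ab1, H2-Eb1, Cd74 and Ciita the other AE9a+Meis2 libraries are the lowest 2 points.

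The peptide editor genes were lower and followed the classical chains less closely. H2-DMa (chromosome 17, 34119541 to 34139101), its alpha chain, was at 11.4, 14.1 and 41.1 FPKM in AE9a+Meis2, at 15.2 and 19.1 FPKM in AE9a and at 15.1, 8.78 and 21.4 FPKM in AE+Meis2. H2-DMb2, a beta chain gene, was at 8.26, 7.91 and 22.4 FPKM in AE9a+Meis2, at 7.41 and 13.8 FPKM in AE9a and at 7.72, 6.39 and 11.2 FPKM in AE+Meis2. For both, AE9a+Meis2 replicate 3 stood above the other 7 libraries. The remaining AE9a+Meis2 libraries lay below both AE9a libraries for H2-DMa and between them for H2-DMb2.

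The other beta chain gene, H2-DMb1 (chromosome 17, 34153072 to 34160230), had a pattern of its own. It was at 27.9, 19.97 and 31.9 FPKM in AE9a+Meis2, at 21.96 and 19.2 FPKM in AE9a and at 17.3, 6.91 and 22.04 FPKM in AE+Meis2. AE9a+Meis2 replicate 1, the lowest library for the classical chains, was the second highest for H2-DMb1. The ratio of H2-DMb1 to H2-Aa accordingly ran from 0.0555 in AE+Meis2 replicate 2 to 0.823 in AE9a+Meis2 replicate 1, a 14.8-fold range. Its r with H2-Aa was -0.05 over the 8 libraries, against 0.60 for H2-DMa and 0.48 for H2-DMb2. The beta chain genes are near copies: 27.2% of the 50-base words in the coding transcripts of H2-DMb1 also occur in those of H2-DMb2, and 21.2% the other way round. The sources used here do not say how such reads were divided, so the split between these 2 genes is uncertain.

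The genes of H2-DO, which restrains the editor and is known mainly from B cells, varied on their own scale. H2-Oa (chromosome 17, 34092340 to 34095234) was at 7.94, 20.03 and 25.7 FPKM in AE9a+Meis2, at 8.62 and 19.3 FPKM in AE9a and at 9.80, 12.9 and 6.59 FPKM in AE+Meis2. H2-Ob was at 3.22, 5.60 and 16.7 FPKM in AE9a+Meis2, at 3.15 and 8.69 FPKM in AE9a and at 4.32, 7.34 and 4.91 FPKM in AE+Meis2. For both genes the ranges of the 3 groups overlapped, and AE9a replicate 2 was well above AE9a replicate 1. The order of abundance among members was Cd74, then H2-Aa, in all 8 libraries. H2-Ab1 and H2-Eb1 followed in 6 libraries, while H2-DMb1 overtook both and H2-DMa overtook H2-Eb1 in AE9a+Meis2 replicate 1, and H2-Oa and H2-DMb1 overtook H2-Eb1 in replicate 2 of that group.

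All 10 members were highest in AE9a+Meis2 replicate 3, the library in which 6.13% of the 12565 tested genes had their highest value. On log2(FPKM + 1), this library exceeded the mean of AE9a+Meis2 replicates 1 and 2 by a median of 1.89 over the members and by -0.1 over all tested genes. The excess was 2.99 for H2-Ab1, 2.78 for Cd74, 2.63 for H2-Eb1, 2.58 for H2-Aa and 2.03 for Ciita, and 0.42 for H2-DMb1. AE9a+Meis2 replicate 1 was the lowest library for 5 members, the classical chains, Cd74 and Ciita, and 8.86% of tested genes were lowest there. The pooled within-group standard deviation on this scale was 1.04 to 1.18 for the classical chains and Cd74, above that of 91.4% to 93.9% of tested genes. For the other members it was between 0.56 and 0.80, and the median over all tested genes was 0.38.

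AE9a+Meis2 and AE9a share the truncated fusion and differ in Meis2. The classical chains and Cd74 lay lower in AE9a+Meis2 on average and the editor and inhibitor genes slightly higher, and none passed the test. The log2 difference was -1.13 ± 0.81 (standard error; 3 and 2 libraries) for H2-Eb1, -1.01 ± 0.91 for H2-Ab1, -0.98 ± 0.80 for H2-Aa and -0.74 ± 0.84 for Cd74. It was -0.30 ± 0.62 for Ciita and between 0.14 and 0.33 for the 5 genes of H2-DM and H2-DO. limma with Benjamini-Hochberg adjustment called 0 of 10 members (adjusted p = 1.0 for each), against 0.0478% of all tested genes. At an unadjusted p under 0.05 there were 0 members and 3.06% of tested genes. On the log2 scale 5 members and 49.8% of tested genes lay higher in AE9a+Meis2. The groups overlapped for all 10 members, while 23.8% of tested genes had no overlap. The median log2 difference was -0.08 over the members and -0.0011 over all tested genes.

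These values depended on which AE9a+Meis2 library was in the fit. Without replicate 1, the lowest library, the difference from AE9a was -0.51 ± 0.73 for H2-Eb1, -0.32 ± 0.69 for H2-Aa, -0.28 ± 0.80 for H2-Ab1, -0.05 ± 0.73 for Cd74 and 0.18 ± 0.57 for Ciita, and the median over the members was 0.23. Without replicate 3, the highest library, it was -2.01 ± 0.43 for H2-Eb1, -2.00 ± 0.45 for H2-Ab1, -1.84 ± 0.44 for H2-Aa, -1.67 ± 0.41 for Cd74 and -0.97 ± 0.32 for Ciita. These 5 members then had an unadjusted p under 0.05 in limma, from 0.0031 for H2-Eb1 to 0.022 for Ciita, and none passed after adjustment over all genes (adjusted p = 1.0). The share of all tested genes under that threshold in this fit is not given. No overlap with AE9a, in the lower direction, was then seen for 6 members, H2-DMa being the sixth, against 15.2% of the genes tested. AE9a+Meis2 then holds 2 libraries. All members were highest in the library left out, so leaving it out lowers the group's mean by construction. The p-values and overlaps of this fit describe that dependence and are no test of a difference between the groups. The median over the members was -0.69, and H2-DMa, H2-DMb2, H2-Oa and H2-Ob changed from higher to lower. H2-DMb1 stayed slightly higher at 0.20 ± 0.52.

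By their labels AE+Meis2 and AE9a+Meis2 differ in the form of the fusion, full-length or truncated, and share Meis2. The level of Meis2 RNA differed as well, at 13.1, 38.2 and 81.5 FPKM in AE+Meis2 and 621, 604 and 1280 FPKM in AE9a+Meis2. Effects of the fusion and of the Meis2 level cannot be told apart here. The classical chains and Cd74 lay higher in AE+Meis2 on average and the other 6 members lower, and none passed the test. The log2 difference was 1.04 ± 0.72 for H2-Eb1, 0.88 ± 0.72 for H2-Aa, 0.71 ± 0.81 for H2-Ab1 and 0.56 ± 0.75 for Cd74 (3 and 3 libraries). The 5 genes of H2-DM and H2-DO lay lower in AE+Meis2, from -0.86 ± 0.40 for H2-DMb1 and -0.71 ± 0.49 for H2-Oa to -0.30 ± 0.57 for H2-Ob, and Ciita differed by -0.14 ± 0.56. limma called 0 of 10 members, with adjusted p between 0.73 and 0.97 by the Benjamini-Hochberg method, against 0.0398% of all tested genes. At an unadjusted p under 0.05 there were 0 members and 7.15% of tested genes, and 4 members and 54.9% of tested genes lay higher in AE+Meis2. All 10 overlapped between the groups, while 13.5% of tested genes did not. The median was -0.22 over the members and 0.043 over all tested genes.

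Here too the values depended on the AE9a+Meis2 libraries in the fit. Without AE9a+Meis2 replicate 1 the difference was 0.42 ± 0.67 for H2-Eb1, 0.22 ± 0.63 for H2-Aa, -0.02 ± 0.73 for H2-Ab1 and -0.13 ± 0.66 for Cd74, the median over the members was -0.63, and H2-Oa alone had an unadjusted p under 0.05 in limma (-1.18 ± 0.41, adjusted p = 0.82). Without AE9a+Meis2 replicate 3 it was 1.92 ± 0.39 for H2-Eb1, 1.74 ± 0.40 for H2-Aa, 1.71 ± 0.41 for H2-Ab1 and 1.49 ± 0.37 for Cd74. These 4 then had an unadjusted p under 0.05 in limma (0.0025 to 0.0071), with adjusted p between 0.60 and 0.71, and the median over the members was 0.41. With Ciita, at 0.53 ± 0.29, they were the 5 members that lay higher in AE+Meis2 with no overlap, against 10.1% of the genes tested. As above, leaving out the library in which all members were highest lowers the AE9a+Meis2 mean by construction. These p-values and overlaps are therefore no test of a difference between the groups. Without the library labelled AE+Meis2 replicate 1, and with AE9a+Meis2 replicate 3 kept, the differences of the classical chains were smaller, 0.74 ± 0.84 for H2-Eb1, 0.59 ± 0.83 for H2-Aa and 0.42 ± 0.95 for H2-Ab1. Then 0 members lay higher and 0 lower with no overlap, against 13.8% and 11.9% of the genes tested. For the fits that left out a library, the share of all tested genes at an unadjusted p under 0.05 is not given. The comparisons described so far share the AE9a+Meis2 libraries and are not separate evidence.

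By their labels AE+Meis2 and AE9a differ in both the fusion and Meis2, and each also enters a comparison above. Differences were small: -0.10 ± 0.80 for H2-Aa, -0.30 ± 0.91 for H2-Ab1, -0.09 ± 0.81 for H2-Eb1, -0.18 ± 0.84 for Cd74 and -0.44 ± 0.62 for Ciita. The remaining 5 genes lay between -0.52 for H2-DMb1 and 0.01 for H2-Ob. limma called 0 of 10 (Benjamini-Hochberg adjusted p between 0.95 and 1.0), against 0.0318% of all tested genes. At an unadjusted p under 0.05 there were 0 members and 5.98% of tested genes, and 1 member and 55.9% of tested genes lay higher in AE+Meis2. Ciita alone had no overlap, its 3 AE+Meis2 values of 2.13 to 2.96 FPKM lying below 3.24 and 4.53 FPKM; 8.66% of tested genes were lower with no overlap. Without the library labelled AE+Meis2 replicate 1, 5 members, the classical chains, Cd74 and Ciita, were lower with no overlap, against 14.9% of the genes tested. H2-Aa then differed by -0.40 ± 0.91. The standard errors include the spread within AE9a+Meis2, which the fit shares among groups: for H2-Aa the error was 0.40 without AE9a+Meis2 replicate 3, at the same difference.

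**Figure D2:**
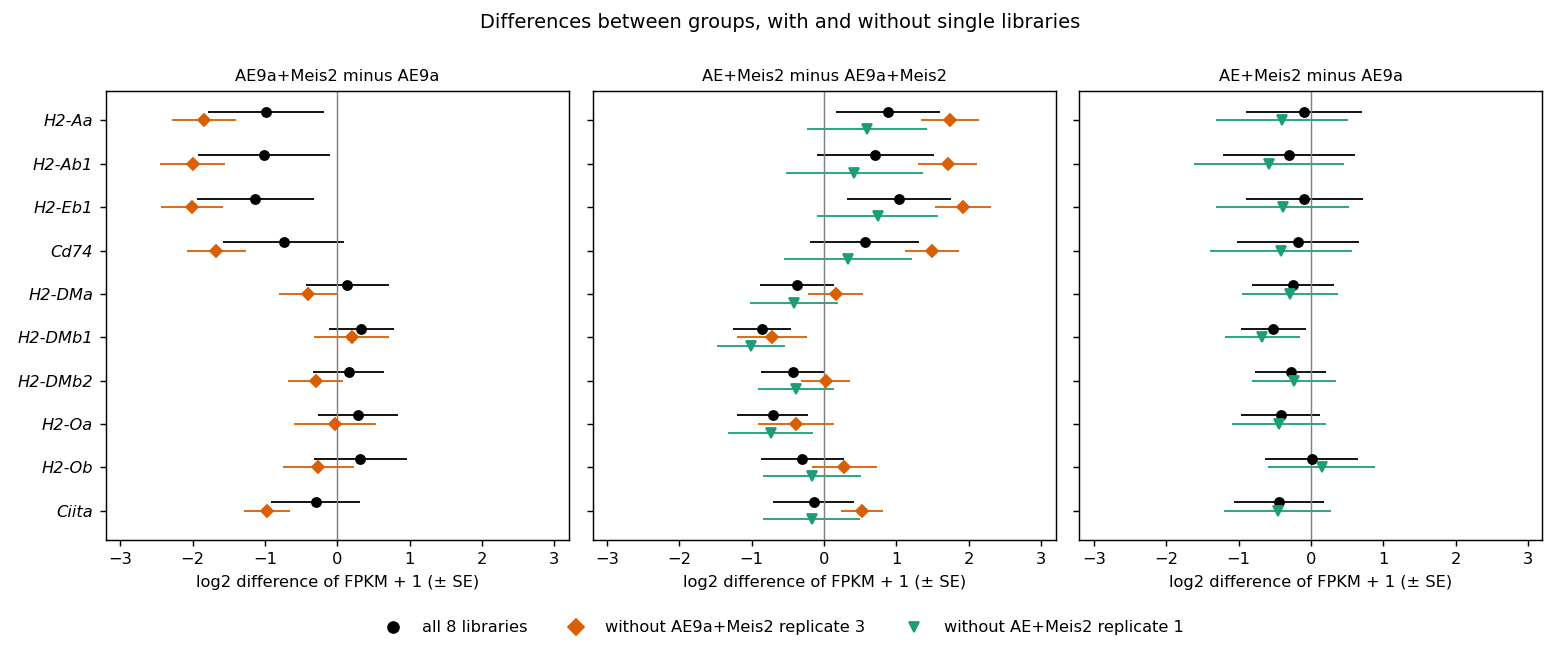
Log2 difference of FPKM + 1 between groups for each class II gene, with its standard error, from the fit over all 8 libraries and from fits without AE9a+Meis2 replicate 3 or without the library labelled AE+Meis2 replicate 1. Leaving out AE9a+Meis2 replicate 3 took H2-Eb1 from -1.13 to -2.01 against AE9a and from 1.04 to 1.92 in AE+Meis2 against AE9a+Meis2.

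The members other than Cd74 and Ciita lie within 252.3 kilobases of chromosome 17 (34092340 to 34344645, GENCODE M21 on GRCm38), which also holds genes of class I peptide supply. Genes of this segment were set beside the members by position, a choice made after values had been seen. The immunoproteasome subunit Psmb8, which lies between H2-DMb1 and H2-Ob, was at 115, 114 and 117 FPKM in AE9a+Meis2, at 89.7 and 73.2 FPKM in AE9a and at 124, 101 and 133 FPKM in AE+Meis2. Its neighbour Tap1, a subunit of the peptide transporter, was at 50.7, 43.0 and 53.5 FPKM in AE9a+Meis2, at 44.1 and 25.0 FPKM in AE9a and at 64.0, 62.7 and 55.3 FPKM in AE+Meis2. Neither shared the wide spread of the class II genes in AE9a+Meis2. Psmb9 and Tap2 rose from replicate 1 to 3 of AE9a+Meis2, at 64.2, 76.9 and 93.5 FPKM and at 34.8, 45.7 and 52.0 FPKM. This rise was smaller than that of the classical chains. Pearson's r with the mean of the members over the 8 libraries was between -0.20 and 0.23 for Brd2, Psmb9, Tap1, Psmb8 and Tap2, and between 0.88 and 0.95 for H2-Ab1, H2-Aa, H2-Eb1 and H2-Ea-ps, of which all but H2-Ea-ps enter that mean. The other members of the segment spread between these, with r of 0.25 for H2-DMb1, close to Psmb9, 0.56 for H2-Oa, 0.77 for H2-Ob, 0.80 for H2-DMb2 and 0.85 for H2-DMa. H2-Eb2, a further class II beta gene, was too low to be tested, at 1.96 FPKM in AE9a+Meis2 replicate 3 and at most 0.987 FPKM elsewhere. Some members overlap genes on the other strand, H2-DMa with Brd2, H2-Oa with BC051537, H2-Eb1 with Gm20513 and Ciita with Dexi, and Cd74 overlaps the microRNA gene Mir5107. The library kit named in the labels does not mark strand, so reads of such pairs cannot be told apart.

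**Figure D3:**
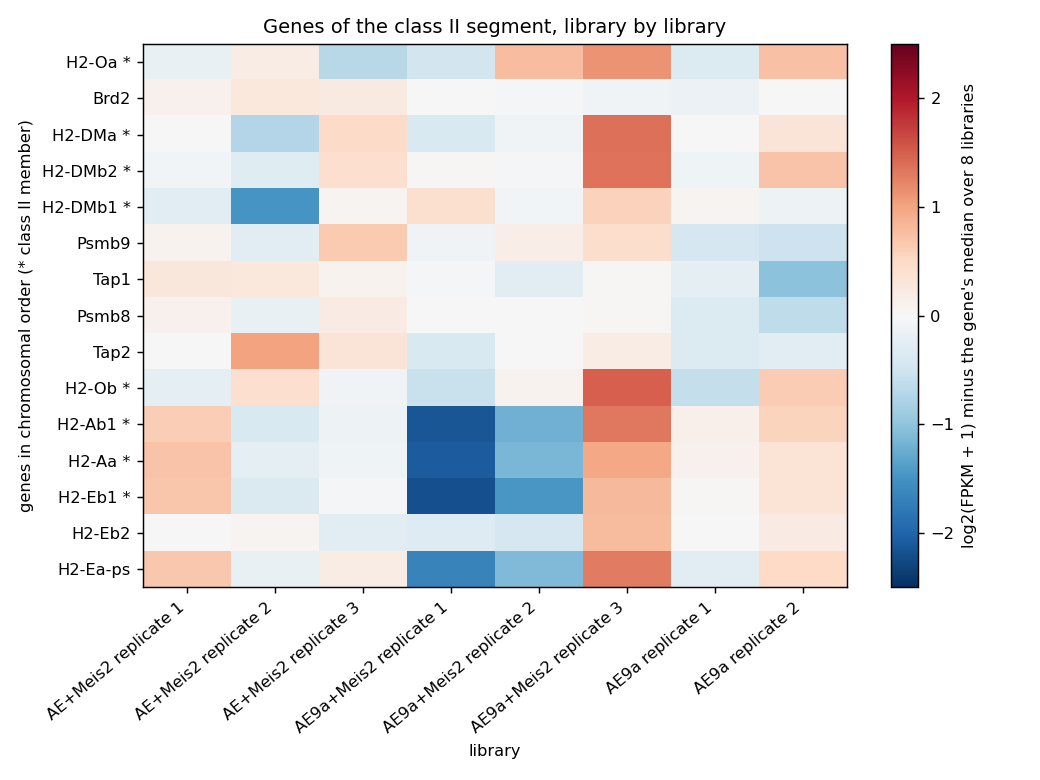
Genes of the class II segment in chromosomal order against the 8 libraries; color gives log2(FPKM + 1) minus the gene's median over the libraries, and an asterisk marks a class II member. The classical chains and H2-Ea-ps are low in AE9a+Meis2 replicates 1 and 2 and high in replicate 3, while Psmb8 is within 114 to 117 FPKM in these libraries.

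Promoter factors of class II genes differed little. Of 7 tested, Rfx5, Rfxap and Rfxank of the RFX complex, Creb1, and the NF-Y subunits Nfya, Nfyb and Nfyc, limma called 0 in each comparison. In AE9a+Meis2 against AE9a 1 was higher and 6 lower, with a median log2 difference of -0.10. In AE+Meis2 6 were higher and 1 lower in each comparison, with a median of 0.17 over AE9a+Meis2 and 0.07 over AE9a. Rfx5 was at 6.70, 7.001 and 5.79 FPKM in AE9a+Meis2, lowest of all 8 libraries in replicate 3, where the members were highest. Rfxap, Creb1 and Nfyb were also lowest in that library, at 7.65, 11.9 and 15.5 FPKM, while Rfxank, Nfya and Nfyc were not. Of all tested genes 18.7% were lowest there. Nfyb differed by 0.44 ± 0.18 in AE+Meis2 against AE9a+Meis2 (limma adjusted p = 0.68). With the library labelled AE+Meis2 replicate 1 left out, the medians were 0.31 over AE9a+Meis2 and 0.16 over AE9a, with 0 of 7 called, and Nfyb differed from AE9a+Meis2 by 0.50 ± 0.20.

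Among 12 genes that feed into Ciita expression, interferon gamma signalling and lineage factors, 11 were tested and 0 were called in any comparison. In AE9a+Meis2 against AE9a 7 were higher and 4 lower, with a median of 0.53. In AE+Meis2 5 were higher and 6 lower than in AE9a+Meis2 (median -0.47), and 6 higher and 5 lower than in AE9a (median 0.19). Irf8, a factor of monocytes and dendritic cells, was at 94.6, 59.2 and 50.2 FPKM in AE9a+Meis2, at 19.9 and 16.8 FPKM in AE9a and at 8.14, 10.2 and 16.0 FPKM in AE+Meis2. The 3 groups did not overlap. Of all tested genes 23.8% had no overlap between AE9a+Meis2 and AE9a, and 13.5% had none between AE+Meis2 and AE9a+Meis2. Within AE9a+Meis2 Irf8 was highest in replicate 1, where Ciita was lowest. Irf4 ran the other way, at 0.953, 3.09 and 7.76 FPKM in AE9a+Meis2. Like Ciita, it was lowest of all libraries in replicate 1 and highest in replicate 3. Irf4 was at 3.46 and 4.95 FPKM in AE9a and at 0.972, 1.14 and 1.96 FPKM in AE+Meis2. Irf8 differed by 1.79 ± 0.35 against AE9a (limma adjusted p = 0.67) and by -2.47 ± 0.32 in AE+Meis2 against AE9a+Meis2 (limma adjusted p = 0.08). With the library labelled AE+Meis2 replicate 1 left out, the latter was -2.27 ± 0.34 (limma adjusted p = 0.17), and the list's medians were -0.24 against AE9a+Meis2 and 0.14 against AE9a, with 0 of 11 called.

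Interferon gamma itself, Ifng, was below the filter at no more than 1.40 FPKM. Its highest value was in AE9a+Meis2 replicate 3, where silent gene families also had values, at a mean of 0.461 FPKM.

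Of the genes of endosomal processing 11 were tested and limma called 0. In AE9a+Meis2 against AE9a 9 were higher, with a median of 0.44, and in AE+Meis2 against AE9a+Meis2 7 were lower, with a median of -0.17. Ifi30, the lysosomal reductase that opens disulfide bonds of antigens, was at 305, 263 and 406 FPKM in AE9a+Meis2, at 189 and 129 FPKM in AE9a and at 117, 63.1 and 102 FPKM in AE+Meis2. The 3 groups did not overlap. Of all tested genes 23.8% had no overlap between AE9a+Meis2 and AE9a, and 13.5% had none between AE+Meis2 and AE9a+Meis2. Ifi30 differed by -1.80 ± 0.30 in AE+Meis2 against AE9a+Meis2 (limma adjusted p = 0.25). Leaving out the library labelled AE+Meis2 replicate 1 gave -1.98 ± 0.32 for Ifi30 (limma adjusted p = 0.18) and a list median of -0.51, with 0 of 11 called. Against AE9a the list's median was 0.14 with that library and -0.24 without it. Ctss, the protease that trims the invariant chain, was at 784, 297 and 404 FPKM in the AE9a+Meis2 libraries, and was highest in replicate 1, where Cd74 was lowest.

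Of 5 costimulatory genes, which deliver the second signal to T cells, all were tested and 0 were called. Cd80 was at 3.38, 1.61 and 2.69 FPKM in AE9a+Meis2, at 0.171 and 0.696 FPKM in AE9a and at 0.567, 1.19 and 1.16 FPKM in AE+Meis2. It differed by 1.31 ± 0.34 in AE9a+Meis2 against AE9a, where the groups did not overlap (limma adjusted p = 1.0). Cd83 differed by -1.47 ± 0.65 in the same comparison (limma adjusted p = 1.0), with a value of 12.5 FPKM in AE9a replicate 2 and at most 5.66 FPKM elsewhere. The list's median in AE+Meis2 was -0.40 against AE9a+Meis2 and 0.13 against AE9a, and -0.26 and 0.44 without the library labelled AE+Meis2 replicate 1, with 0 of 5 called.

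Some markers of cells that carry class II were also highest in AE9a+Meis2 replicate 3. Of 10 B-cell markers 8 had their highest value there. Their summed level was 63.6, 35.8 and 147 FPKM in AE9a+Meis2, 80.7 and 70.4 FPKM in AE9a and 49.9, 92.4 and 43.8 FPKM in AE+Meis2. The defining markers Ms4a1 and Pax5 were above 0 in all libraries. Ms4a1 reached 7.86 FPKM in AE9a+Meis2 replicate 3 and 7.10 FPKM in AE+Meis2 replicate 2, a library with moderate class II levels. Of 5 plasmacytoid dendritic cell markers all were highest in AE9a+Meis2 replicate 3, where they summed to 27.8 FPKM against 1.63 to 6.22 FPKM elsewhere. Siglech reached 15.8 FPKM there, and Klk1 and Cox6a2 were at 0 in some libraries. Silent gene families also had values in AE9a+Meis2 replicate 3, at a mean of 0.461 FPKM. The part of such values in the low marker levels was not tested.

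Of 10 conventional dendritic cell markers 3 were highest in AE9a+Meis2 replicate 3. The mean log2(FPKM + 1) of these markers had an r of 0.91 with that of the members over the 8 libraries, against 0.83 for plasmacytoid dendritic cells, 0.76 for T cells, 0.63 for B cells and 0.10 for monocytes and macrophages. Flt3, which progenitors also express, made up 53.3 FPKM of their sum in AE9a+Meis2 replicate 1. They summed to 64.5, 51.9 and 68.3 FPKM in AE9a+Meis2, 42.0 and 66.1 FPKM in AE9a and 80.9, 53.2 and 27.7 FPKM in AE+Meis2. Among their defining genes, Xcr1 was at most 0.490 FPKM and Cd209a was at 0 in AE9a+Meis2 replicate 1 and at 3.02 FPKM in replicate 3. Of 12 monocyte and macrophage markers 2 were highest in AE9a+Meis2 replicate 3, and they summed to 496, 305 and 447 FPKM in AE9a+Meis2, 379 and 376 FPKM in AE9a and 603, 379 and 354 FPKM in AE+Meis2, an order unlike that of the class II genes. The list was not uniform. In AE9a+Meis2 against AE9a, 2 of the markers were higher and 4 lower with no overlap, against 1641 and 1348 of the 12565 tested genes. Those lower were the macrophage genes C1qa, C1qb, C1qc and Mrc1, by -1.52 ± 0.80, -1.89 ± 0.85, -1.52 ± 0.85 and -1.32 ± 0.55. In AE+Meis2 they differed from AE9a+Meis2 by 1.79 ± 0.72, 2.26 ± 0.76, 1.85 ± 0.76 and 1.88 ± 0.50. Cd68 lay the other way, at 0.84 ± 0.27 and -0.75 ± 0.24, as did Ccr2, at 0.34 ± 0.48 and -1.60 ± 0.43, and Fcgr1, at 1.76 ± 0.49 and -0.37 ± 0.44. limma called none of these 7 genes, which were named after their values were seen (adjusted p of 0.50 or more). C1qa, C1qb, C1qc and Mrc1 each had their highest value in the library labelled AE+Meis2 replicate 1, and differences of the 7 genes without it are not given. C1qa and C1qc overlapped between AE+Meis2 and AE9a+Meis2. C1qb was at 143 FPKM in the library labelled AE+Meis2 replicate 1 and at 85.1 and 15.2 FPKM in the other AE+Meis2 libraries. It was at 13.7, 8.40 and 12.3 FPKM in AE9a+Meis2, where it was not highest in replicate 3. The 6 T-cell markers, whose cells do not make class II in mice, summed to 9.47, 17.5 and 52.6 FPKM in AE9a+Meis2, 16.7 and 21.6 FPKM in AE9a and 31.2, 38.9 and 23.3 FPKM in AE+Meis2, again with the highest sum in AE9a+Meis2 replicate 3 and the lowest in replicate 1. The part of these cells in the class II levels was not tested.

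**Figure D4:**
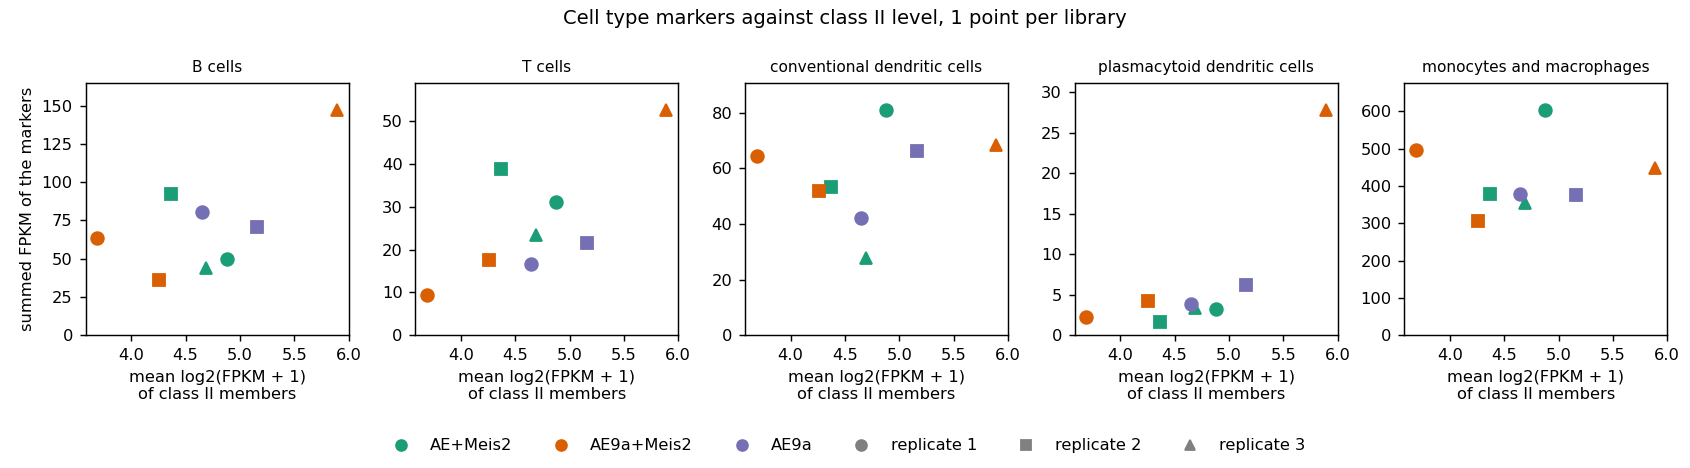
Summed FPKM of the markers of 5 cell types against the mean log2(FPKM + 1) of the 10 class II genes, 1 point per library, colored by group and shaped by replicate number. AE9a+Meis2 replicate 3, at a mean of 5.89, has the highest sums for B cells (147), T cells (52.6) and plasmacytoid dendritic cells (27.8), and AE9a+Meis2 replicate 1, at 3.69, has the lowest for T cells (9.47).

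The genes most like the mean of the members over the 8 libraries, by Pearson's r on log2(FPKM + 1) among tested genes with at least 5 FPKM in 2 or more libraries, were H2-Ea-ps (0.939), Il2rb (0.931), Dtnb (0.895), Cd2 (0.89), Chid1 (0.889), Cd3d (0.882), Batf3 (0.879) and Gimap3 (0.838). Il2rb, a receptor chain of T and natural killer cells, was at 3.03, 6.16 and 23.8 FPKM in AE9a+Meis2, at 5.35 and 8.64 FPKM in AE9a and at 12.2, 6.41 and 6.83 FPKM in AE+Meis2. Cd3d is a T-cell gene, and Batf3 is a transcription factor of dendritic cells. Each of the 8 had its highest value in AE9a+Meis2 replicate 3 and its lowest in AE9a+Meis2 replicate 1. These likenesses share the same libraries and their depth, and they describe the libraries without a test.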

How the data were processed

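The authors deposited 1 table of FPKM for 23997 genes in 8 libraries. TopHat, Cufflinks and Cuffdiff and the mouse build mm10 are named, per the submitters' processing notes; the sources used here do not state versions, settings, annotation or scaling between libraries, and the number of reads is unknown. RNA was extracted with TRIzol and libraries were made with an Illumina TruSeq kit, per the labels' protocols. Titles gave each library's group and replicate number. Nothing says whether libraries came from separate donors or transductions, so a p-value here covers only the spread between libraries, which may be technical.

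Values were taken to log2(FPKM + 1), which understates the change of low genes such as Ciita. Genes with at least 1 FPKM in at least 2 libraries were tested (12565). A model with a mean for each of the 3 groups was fitted to the 8 libraries with limma (3.58.1, under R 4.3.3), using empirical Bayes variances that follow mean expression (prior degrees of freedom 2.28, residual 5), and Benjamini-Hochberg adjustment over all tested genes at 0.05. The fit was tested on simulated data. Members are named with every library's value. Of each other list up to 4 genes with the smallest p may be named, and the 8 genes most like the members. Rfx5, Rfxap, Creb1, Irf4, Ifng, Ctss, Cd40, the single marker genes and the genes of the segment were named after their values were seen. The members and lists were chosen with earlier results of these data known. Gene positions come from GENCODE M21 (GRCm38, the assembly of mm10), promoters from RefSeq. Tables and figures were made in Python (3.11.15) with NumPy (2.4.6), pandas (2.3.3) and matplotlib (3.10.9). Other settings changed the pseudocount, the filter, the scaling, the libraries fitted and the variance trend, or added a replicate block. Some genes that the rule names are left out of the text, though counts and sums include them.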

Additional observations from a re-analysis of the deposited data

How the results depend on the processing

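limma called 0 of the 10 members under all 17 other settings of each comparison. The lowest adjusted p of any member over these settings was 0.87 for AE9a+Meis2 minus AE9a (the first difference), 0.33 for AE+Meis2 minus AE9a+Meis2 (the second) and 0.77 for AE+Meis2 minus AE9a (the third). Over all genes the count of calls ran from 2 to 9 (6 as reported), 5 to 23 (5) and 0 to 10 (4). With 1 library left out at a time, the median log2 difference over the members ran from -0.69 to 0.23, from -0.63 to 0.41 and from -0.47 to 0.03. Where AE9a kept 1 library, it was assumed to vary like the other groups. Without both AE9a+Meis2 replicate 3 and AE9a replicate 1, in which silent gene families had values, the median was -1.02 in the first and 0.41 in the second.

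Signs turned for all members but H2-DMb1 in at least 1 setting of 1 comparison. In the first, without those libraries, H2-DMa was at -0.56, H2-DMb2 at -0.71, H2-Oa at -0.56 and H2-Ob at -0.88. In the second H2-DMa was at 0.16, H2-DMb2 at 0.02, H2-Ob at 0.28 and Ciita at 0.53, and in the third H2-Ob was at -0.60. H2-Ob was also at -0.05 in the third under median-of-ratios scaling. The ranges with 1 library left out that crossed 0 in the first were -0.40 to 0.48 for H2-DMa, -0.30 to 0.57 for H2-DMb2, -0.24 to 0.83 for H2-Oa, -0.29 to 0.93 for H2-Ob and -0.97 to 0.18 for Ciita. In the second they were -0.02 to 1.71 for H2-Ab1, -0.13 to 1.49 for Cd74, -0.73 to 0.16 for H2-DMa, -0.67 to 0.02 for H2-DMb2, -0.76 to 0.28 for H2-Ob and -0.62 to 0.53 for Ciita. In the third they were -0.40 to 0.08 for H2-Aa, -0.39 to 0.14 for H2-Eb1, -0.41 to 0.04 for Cd74, -0.53 to 0.07 for H2-DMa, -0.69 to 0.13 for H2-DMb2, -0.96 to 0.12 for H2-Oa and -0.60 to 0.63 for H2-Ob. Apart from leaving out libraries, the cause of these turns was not tested. Ciita was not tested under the stricter filter. Without the library labelled AE+Meis2 replicate 1, a setting chosen for the other lists after seeing the data, the third difference was -0.11 for H2-Ea-ps (0.12 with it) and -0.24 for the median of endosomal processing (0.14 with it).

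With the replicate number as a block, limma called 0 members in each comparison. The medians were then -0.47, -0.22 and -0.60, H2-DMa was at -0.27 and H2-DMb2 at -0.17 in the first, and H2-Ob was at -0.25 in the third. Deviations of same-numbered libraries from their group means correlated between -0.0252 and 0.133, and those of differently numbered libraries between -0.101 and 0.0827. Deviations from the mean of so few libraries depend on each other, so these values cannot settle whether the numbers pair the libraries.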
